A study of Mus musculus with 6 samples.

Results

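Melanocyte lineage genes were examined in the mouse melanoma line D4M-3A, in control cells and in cells with a knockout of Nfkbiz. This gene encodes IκBζ, a nuclear co-regulator of NF-κB. The genes are Mitf, Sox10, Pax3, Sox9, Kit, Tyr, Tyrp1, Dct, Pmel and Mlana. All 10 were found by symbol among the 43043 genes of the deposited tables. RNA was sequenced from 3 control (Ctrl) samples, transduced with an empty control construct, and from 3 Nfkbiz knockout (Nfkbiz KO) samples, transduced with a CRISPR-Cas9 construct against Nfkbiz. Both groups are cultures of the same line in serum-containing medium, both were transduced by lentivirus and selected with puromycin, and each is described as 3 independent experiments. Whether the knockout cells are a pool or a clone is not given in the sources used here. D4M-3A cells come, as background knowledge, from a melanoma of a mouse in which Cre recombinase under the Tyr promoter activated mutant Braf. The samples held between 32219900 and 44927203 reads counted on genes, so that a count of 0 allows up to 0.0668 to 0.0931 CPM (read counts scaled to a common library size) in a sample. Over the 6 samples, 232593703 reads were counted, and a count of 0 in all of them allows up to 0.0129 CPM. These limits cover counting error only. As a check of the labels, Nfkbiz RNA fell from 69.2 ± 5.87 to 34.9 ± 0.245 TPM (read counts scaled to gene length and library size; mean ± SD, n = 3 each), or by 0.98 on the log2 scale (SE 0.0559, adjusted p = 5.98e-08 in edgeR). Nfkbiz RNA thus remained in the knockout samples, and its level does not measure the protein. The paper checked the depletion of IκBζ protein by immunoblot. The adjusted p values below come from the quasi-likelihood test of edgeR on read counts, adjusted by Benjamini-Hochberg for all 14419 genes tested.

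Melanocytes arise from the neural crest, and their identity rests on a small network of transcription factors. Sox10 and Pax3 switch on Mitf, the master regulator of the lineage, and Mitf in turn activates the genes of pigment synthesis. Tyrosinase (Tyr), tyrosinase-related protein 1 (Tyrp1) and dopachrome tautomerase (Dct) are the enzymes of the melanin pathway, Pmel forms the fibrils of the melanosome, Mlana is a melanosome membrane protein, and Kit is the receptor through which Kitl keeps melanoblasts alive. Melanomas that lose this program are called dedifferentiated. Such cells are known for low Mitf and Sox10 and for high Sox9, Axl and neural crest or mesenchymal genes.

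The 3 enzyme genes carry a known element of Mitf target promoters, the M-box, whose letters are TCATGTG. The M-box, its core CATGTG and the other E-box letters of Mitf binding, CACGTG, were searched on both strands of the 250 bases before each start site in the RefSeq promoter table (GRCm38.p6), where 5 of the 10 genes matched by symbol. Each match of the M-box is also a match of its core. Each of the 3 enzyme genes had at least 1 M-box, whereas 3.27% of the 32536 promoter windows of the table did. As the element was known in these genes beforehand, this is a description and not a test. The core, within an M-box or not, was found in 12.3% of all windows and the other E-box in 6.04%. The windows are printed 5′ to 3′ on the strand of the gene, with the matches in capitals, to show the element in the 3 enzyme genes. A link between the element and the level of a gene was not tested. Tyr lies at chr7:87493513-87493762 on the minus strand, Tyrp1 at chr4:80833963-80834212 on the plus strand and Dct at chr14:118052247-118052496 on the minus strand.
Tyr: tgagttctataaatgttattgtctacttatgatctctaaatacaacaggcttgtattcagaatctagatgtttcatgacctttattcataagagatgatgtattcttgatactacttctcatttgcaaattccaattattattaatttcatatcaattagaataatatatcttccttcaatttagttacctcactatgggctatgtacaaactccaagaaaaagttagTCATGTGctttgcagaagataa
Tyrp1: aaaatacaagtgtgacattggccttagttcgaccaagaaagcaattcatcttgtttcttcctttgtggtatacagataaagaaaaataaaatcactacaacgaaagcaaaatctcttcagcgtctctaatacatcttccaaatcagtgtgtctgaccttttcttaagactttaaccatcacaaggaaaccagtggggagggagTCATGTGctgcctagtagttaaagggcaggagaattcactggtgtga
Dct: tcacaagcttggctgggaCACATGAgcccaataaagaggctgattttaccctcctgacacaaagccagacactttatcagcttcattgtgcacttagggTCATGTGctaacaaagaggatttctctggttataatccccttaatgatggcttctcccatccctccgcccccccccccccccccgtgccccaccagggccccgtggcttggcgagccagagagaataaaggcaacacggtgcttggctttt
In Tyr the M-box lay from -22 to -16 and in Tyrp1 from -47 to -41 relative to the start site. Dct had an M-box from -151 to -145 and another on the opposite strand from -232 to -226. No match was found in the windows of Kit or in the 3 windows of Mitf. The most downstream window of Mitf is shown because its start site is the one that, as background, gives the melanocyte form of Mitf. It lies at chr6:97991533-97991782 on the plus strand.
Mitf: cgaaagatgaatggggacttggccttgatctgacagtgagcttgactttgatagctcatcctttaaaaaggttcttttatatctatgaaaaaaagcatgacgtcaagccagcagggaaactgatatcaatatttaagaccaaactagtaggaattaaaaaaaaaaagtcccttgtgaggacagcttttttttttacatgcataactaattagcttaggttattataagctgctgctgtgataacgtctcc
A match of letters is a description of the sequence and not a measured binding site, and binding was not measured in these samples.

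Most of the lineage genes were silent in D4M-3A cells, in the Ctrl as in the Nfkbiz KO samples. Of the 10 genes, 3 had 0 reads in all 6 samples and 6 had at most 3 reads in every sample, which was taken as not detected. Among all genes listed, 46.0% had 0 reads in all 6 samples and 56.5% had at most 3 reads in each, so that the count alone does not set these genes apart from the table, which also holds many genes that are never or rarely transcribed. The 4 genes with more reads were Sox9, Pax3, Mitf and Pmel, in this order of TPM in each of the 6 samples. Measured per length, Sox9 was 2.44 to 3.47 times as high as Pax3, Pax3 7.91 to 12.6 times as high as Mitf, and Mitf 1.38 to 2.62 times as high as Pmel. The sample ranges of these 4 genes did not overlap between neighbours in the order. Tyrp1, Dct and Mlana could not be ordered at these counts.

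**Figure D1:**
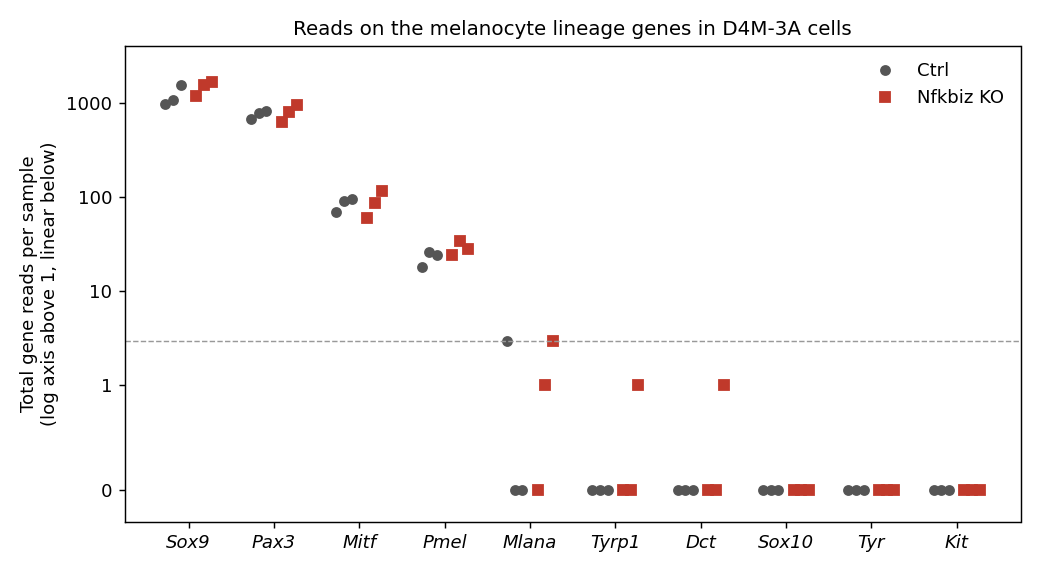
Total gene reads (vertical axis, logarithmic above 1 and linear below) for each of the 10 lineage genes in 3 Ctrl samples (grey circles) and 3 Nfkbiz KO samples (red squares); the dashed line marks 3 reads. Sox9, Pax3, Mitf and Pmel lie above the line in every sample, and Mlana, Tyrp1, Dct, Sox10, Tyr and Kit lie on or below it.

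Sox10, the neural crest factor that starts and maintains the melanocyte program (chromosome 15 of GRCm39, 79039108 to 79049469, minus strand), had 0 reads in all 6 samples. Kit, the receptor tyrosine kinase (chromosome 5, 75735576 to 75817404, plus strand), also had 0 reads in all 6 samples. So did Tyr, the rate-limiting enzyme of melanin synthesis (chromosome 7, 87073979 to 87142720, minus strand). With 0 reads in each group no fold change can be given for these 3 genes.

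Tyrp1, an enzyme of the later steps of melanin synthesis (chromosome 4, 80752360 to 80769956, plus strand), had 1 read in Nfkbiz KO replicate 3 and 0 in the other samples. Dct, which acts between Tyr and Tyrp1 (chromosome 14, 118250202 to 118289656, minus strand), likewise had 1 read in Nfkbiz KO replicate 3 and 0 elsewhere. Mlana (chromosome 19, 29674900 to 29686034, plus strand) had 3 reads in Ctrl replicate 1, 1 read in Nfkbiz KO replicate 2 and 3 reads in Nfkbiz KO replicate 3. All 7 Mlana reads were uniquely mapped, but its TPM, which the authors computed from exons, was 0 in all 6 samples, so that none of them was counted in an exon. A difference between the groups was not detectable for these 3 genes at this depth, and none of them passed the filter on low counts. The 3 enzyme genes with an M-box were thus at 0 or 1 read per sample.

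Mitf, the basic helix-loop-helix factor at the head of the pigment genes (chromosome 6, 97783950 to 97998323, plus strand), was present at a low level. It had 0.690, 1.21 and 0.953 TPM in Ctrl replicates 1, 2 and 3 and 0.736, 1.09 and 1.04 TPM in Nfkbiz KO replicates 1, 2 and 3. The groups overlapped throughout. These values rest on 69, 91 and 96 reads in Ctrl and on 60, 86 and 115 reads in Nfkbiz KO. Between Nfkbiz KO and Ctrl the log2 fold change came to -0.02 (SE 0.187, adjusted p = 0.961), with a 95% confidence interval from -0.42 to 0.39. As the RNA was taken from whole cultures, fewer cells with a gene's RNA and less RNA per cell cannot be told apart. By mean TPM, Mitf stood at percentile 48.4 of the 23244 genes with any read. Part of its reads lay outside exons, and the observed part differed between samples. The ratio of the exon-based RPKM (reads per length of exon and library size) to the CPM of all gene reads stays constant for a gene whose reads keep the same share in exons. Between the 6 samples this ratio varied 1.41 times for Mitf, 1.28 times for Pmel, 1.05 times for Pax3 and 1.02 times for Sox9. With 60 to 115 reads per sample for Mitf and 18 to 34 for Pmel, counting error adds to this spread and was not separated. Reads were summed over the gene, so that transcripts from its several start sites cannot be told apart here.

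Pmel, the fibril protein of the melanosome (chromosome 10, 128540064 to 128556107, plus strand), was the only one of Tyr, Tyrp1, Dct, Mlana and Pmel with more than 3 reads in any sample. It had 0.424, 0.525 and 0.363 TPM in the Ctrl replicates and 0.534, 0.589 and 0.415 TPM in the Nfkbiz KO replicates. The groups overlapped, and all 6 values lay below 1 TPM. Its reads numbered 18, 26 and 24 among the Ctrl and 24, 34 and 28 among the Nfkbiz KO samples. The log2 fold change was 0.31 (SE 0.297, adjusted p = 0.448), with an interval from -0.33 to 0.96, which does not exclude a change of the size seen for Sox9.

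Pax3, a paired-box factor of the neural crest and an activator of Mitf (chromosome 1, 78077904 to 78173771, minus strand), was expressed without a detectable change. It had 8.69, 9.58 and 8.34 TPM in the Ctrl replicates and 9.15, 9.78 and 10.3 TPM in the Nfkbiz KO replicates. The lowest Nfkbiz KO value lay within the Ctrl range. With 629 to 949 reads per sample, the log2 fold change was 0.03 (SE 0.069, adjusted p = 0.807). Its 95% confidence interval, from -0.12 to 0.18, was the narrowest among the 4 tested genes. Pax3 was thus present in the same samples in which Sox10, the other activator of Mitf named above, had no read.

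Sox9, the relative of Sox10 that marks neural crest stem cells and mesenchymal lineages (chromosome 11, 112673009 to 112678586, plus strand), was the highest of the 10 genes and the only one called. It had 22.7, 23.4 and 28 TPM in Ctrl replicates 1, 2 and 3 and 31.7, 33.7 and 31.1 TPM in Nfkbiz KO replicates 1, 2 and 3. On the TPM scale the groups did not overlap, and the mean rose from 24.7 ± 2.90 to 32.2 ± 1.35 TPM (SD, n = 3 each), 1.30 times. Normalized read counts gave a smaller difference. Over the genes tested in each fit, the median log2 fold change was -0.02 from read counts and 0.08 with limma on log2(TPM + 1). The TPM values of Nfkbiz KO were thus shifted upward in general. The part of this shift in the Sox9 difference was not separated. In log2 CPM, Ctrl replicates 1 and 2 had 4.83 and 4.80, Ctrl replicate 3 had 5.19, and the Nfkbiz KO replicates had 5.19, 5.29 and 5.19. Ctrl replicate 3 therefore reached the level of the knockout samples, and the groups overlapped (two-sided exact permutation test, p = 0.3, where 3 samples against 3 cannot go below 0.1). The log2 fold change from read counts was 0.27 (SE 0.0921, adjusted p = 0.0362), a 1.21-fold difference with an interval from 0.07 to 0.47. The adjusted p was above 0.05 when any 1 sample other than Ctrl replicate 3 was left out, with values from 0.0723 to 0.14. Without Ctrl replicate 3 the log2 fold change was 0.41 (adjusted p = 0.000109).

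**Figure D2:**
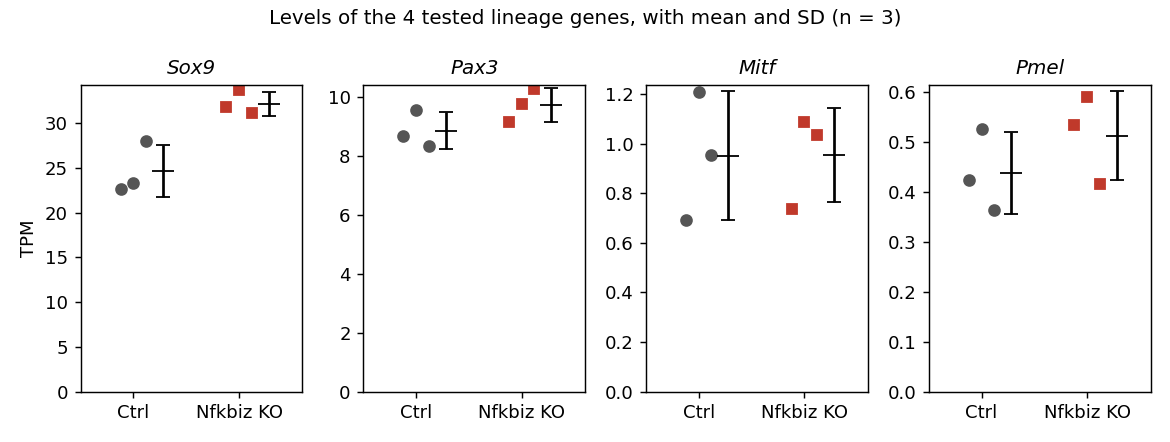
TPM (vertical axis, each panel starting at 0) of Sox9, Pax3, Mitf and Pmel in 3 Ctrl samples (grey circles) and 3 Nfkbiz KO samples (red squares), with the mean and SD of each group in black. The Sox9 values lie between 22.7 and 28 in Ctrl and between 31.1 and 33.7 in Nfkbiz KO, while the groups overlap for the other 3 genes.

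In all, 4 of the 10 genes passed the filter on low counts and were tested. With adjusted p values up to 0.05 as the rule, 1 of the 4 was higher and 0 were lower in Nfkbiz KO. By this rule 18.2% of all tested genes were higher and 18.4% lower, so that 1 of 4 is close to the background. At an unadjusted p under 0.05 the count was also 1 higher and 0 lower, and DESeq2 called 0 lower as well. None of the 10 reached the stricter limits set in the study's methods, which ask also for a change of more than 2-fold and for a difference of more than 4, taken here as TPM. Of all tested genes 1.79% did. In log2 CPM, the groups of none of the 4 genes were free of overlap, against 48.4% of all tested genes.

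Other factors of the melanocyte and neural crest network were expressed, and some changed. Of 12 such genes 9 could be tested, with 3 of them higher and 2 lower after the knockout, or 55.6% called against 36.6% of all genes tested in either direction. As this list and those below were chosen with earlier results of these data known, such shares are a description and not a test. The median log2 fold change was 0.11, against -0.02 over all genes. Tfap2b, an AP-2 factor of the neural crest, was the highest of them and rose from 59.1 ± 4.10 to 81.4 ± 2.51 TPM (log2 fold change 0.37). Zeb2, a zinc-finger factor of melanocyte differentiation, rose from 12.6 ± 1.65 to 20.3 ± 0.385 TPM (0.51), and Snai2, a zinc-finger factor that melanoblasts need for their migration, from 42.4 ± 3.66 to 54.9 ± 3.68 TPM (0.27). Lef1, a nuclear effector of Wnt signaling that acts with Mitf, fell from 7.25 ± 0.665 to 4.50 ± 0.538 TPM (-0.81), with 78.4% of its reads mapped uniquely. Sox5 also fell in read counts (-0.77). Its TPM, computed from exons, was 1.19 ± 0.108 in Ctrl and 0.958 ± 0.206 in Nfkbiz KO. Limma gave -0.16 on log2(TPM + 1) (adjusted p = 0.341) and -0.3 on log2(TPM + 0.1). In the limma fit on log2(TPM + 1), here and below, the median log2 fold change of all genes was 0.08, so that its values are shifted upward against edgeR. The added 1 also shrinks the changes of genes near or below 1 TPM, such as Hgf and Egfr below. Among the relatives of Mitf, Tfe3, which shares its DNA-binding domain family, averaged 22.5 ± 2.96 and 22.8 ± 0.190 TPM in the Ctrl and Nfkbiz KO samples, 20.1 to 34.3 times the level of Mitf in the same sample. Tfec had 1 read, in Nfkbiz KO replicate 3, and 0 in the other samples.

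Ednrb and Mc1r, receptors of the melanocyte lineage, were undetected like Kit, whereas some ligands were expressed. Among 8 receptor and ligand genes 4 could be tested, of which 1 was higher and 2 were lower (75.0% called, against 36.6% of all genes tested), with a median log2 fold change of -0.52. Ednrb, the endothelin receptor of melanoblasts, and its ligand gene Edn3 had 0 reads in all 6 samples. Mc1r, the melanocortin receptor that controls the type of pigment, had 0 reads in the Ctrl samples and 1, 1 and 2 in the Nfkbiz KO samples, at or below the limit of detection. Kitl, the ligand of the undetected receptor Kit, had 34.9, 40.9 and 31.2 TPM in the Ctrl replicates, and in the Nfkbiz KO replicates 56.4, 56.1 and 58.6 TPM. The groups did not overlap, and its log2 fold change was 0.58 (SE 0.0674, adjusted p = 2.95e-05). Edn1 fell from 5.85 ± 0.642 to 3.0 ± 0.709 TPM (-0.98). Hgf, the ligand of Met, was low, with 52 to 74 reads per Ctrl sample and 16 to 33 per Nfkbiz KO sample (-1.40). It was not called with limma on log2(TPM + 1), where the difference was -0.39 (adjusted p = 0.0535). On log2(TPM + 0.1) limma gave -1.03 (adjusted p = 0.0501), also not called. Met itself had 45.7 ± 8.00 and 46.9 ± 0.669 TPM (log2 fold change -0.06).

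Genes of the melanosome ran from undetected to highly expressed. Among 20 genes 15 could be tested, of which 2 were higher and 3 lower, or 33.3% called against 36.6% of all genes tested, with a median log2 fold change of 0.08. Gpr143, a melanosome receptor, had 0 reads, and the transporter genes Slc45a2 and Oca2 had 3 and 1 reads over all 6 samples. Slc24a5, another melanosome transporter, had 109 to 170 reads per sample but at most 0.143 TPM, so that its reads lay almost wholly outside its exons. Reads were counted without regard to strand, and those of an overlapping gene cannot be told apart. Gpnmb, a glycoprotein of melanosomes and lysosomes, was the highest of the list, at 85.9, 89.8 and 83.2 TPM in the Ctrl replicates against 196, 203 and 192 TPM in the Nfkbiz KO replicates. The groups lay far apart, and its log2 fold change was 1.09 (SE 0.0506, adjusted p = 9.1e-09). Myo5a, the motor that carries melanosomes along actin, rose from 28.2 ± 4.82 to 45.2 ± 1.02 TPM (0.58). Rab32 and Rab38, related small GTPases that deliver Tyr and Tyrp1 to the melanosome, both fell. Rab32 fell from 56.9 ± 5.28 to 33.3 ± 0.310 TPM (-0.86). Rab38 was read 69, 60 and 79 times among the Ctrl and 19, 19 and 22 times among the Nfkbiz KO samples, a fall from 3.68 ± 0.210 to 1.14 ± 0.176 TPM (-1.81, SE 0.249, adjusted p = 0.000113). Dtnbp1, a subunit of a complex that sorts melanosome cargo, fell less (-0.31). The genes of the Rab32 and Rab38 cargo, Tyr and Tyrp1, were at 0 or 1 read in the same samples.

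**Figure D3:**
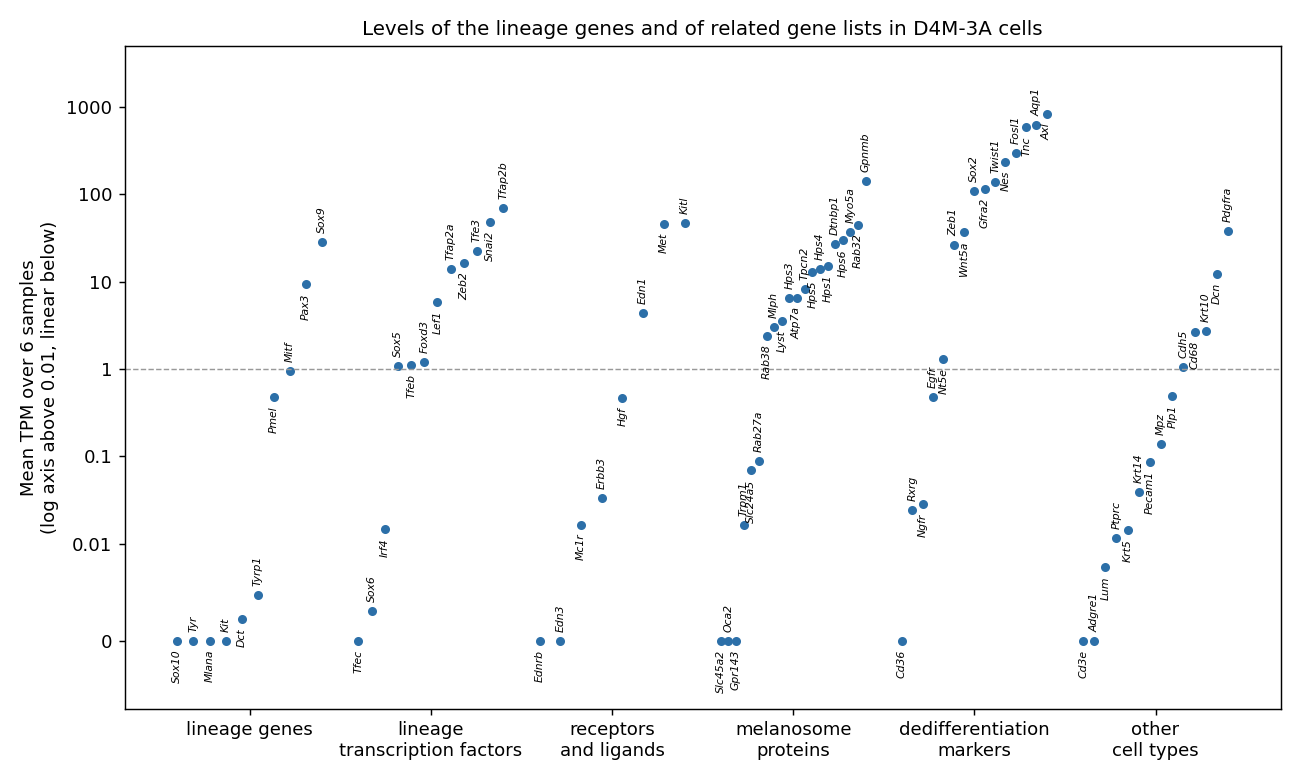
Mean TPM over 6 samples (vertical axis, logarithmic above 0.01 and linear below) for each gene of the lineage list and of 5 related lists; the dashed line marks 1 TPM. In the lineage list Sox9, at 28.4 TPM, is highest, while Axl, Aqp1 and Tnc lead the dedifferentiation markers.

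Several markers of dedifferentiated melanoma were abundant in both groups. Of 15 such genes, 12 passed the filter and were tested. Axl, a receptor tyrosine kinase, reached 688 to 829 TPM in the Ctrl and 894 to 909 TPM in the Nfkbiz KO samples, at percentile 99.3 of genes with any read and 685 to 1234 times the level of Mitf in the same sample. The groups of Axl did not overlap, but its log2 fold change of 0.14 was not called (adjusted p = 0.0894), while it was called in 5 of 15 alternative fits, DESeq2 among them (adjusted p = 0.029). Of the 12 tested genes, 6 were higher and 4 lower, or 83.3% called. This list too was chosen with earlier results of these data known, so that the share is not a test. Of all tested genes 36.6% were called in either direction, 42.6% of those with a mean of at least 10 TPM and 28.5% of those below it, where Egfr and Nt5e lie. The median log2 fold change of the list was 0.23. With limma on log2(TPM + 1), 7 were higher and 1 lower. The median of all genes was 0.08 in that fit, against -0.02 in edgeR, so that falls tended to be smaller and rises larger there. The added 1 further shrinks the changes of genes near or below 1 TPM.

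The largest increases of this list were those of Sox2 and Aqp1. Sox2, a factor of neural stem cells, had 72.4, 67.0 and 71.3 TPM in the Ctrl replicates and 148, 146 and 147 TPM after the knockout, which gave a log2 difference of 0.97 (SE 0.0647, adjusted p = 2.29e-07). Aqp1, a water channel and neural crest marker, rose from 430.5 ± 21.2 to 801 ± 4.12 TPM (0.80). Tnc, the matrix protein tenascin C, rose from 498 ± 84.2 to 681 ± 18.0 TPM (0.36), and Twist1, a mesenchymal factor, from 110 ± 11.7 to 164 ± 12.3 TPM (0.48). Zeb1 (0.33) and Fosl1 (0.35, with 50.3% of its reads mapped uniquely) were the other 2 genes called higher. Of the genes that fell, Egfr (-1.14) and Nt5e (-0.57) were low, with 0.280 to 0.769 TPM and 1.08 to 1.64 TPM over the 6 samples, and neither was called with limma on log2(TPM + 1). Egfr had -0.33 in that fit and -0.85 with limma on log2(TPM + 0.1), where it was not called either. Wnt5a, a Wnt ligand of invasive melanoma, fell from 42.6 ± 4.12 to 31.8 ± 1.18 TPM (-0.54), and Nes, a filament protein of neural progenitors, was lower by a small amount (-0.22), but was not called with limma on log2(TPM + 1), where the difference was -0.12 (adjusted p = 0.13), or without Nfkbiz KO replicate 1 (adjusted p = 0.0661 in edgeR). Ngfr, the neural crest receptor, had 8 reads over the 6 samples, Cd36 had 6 and Rxrg had 3. Among the SOX genes of these lists, Sox2 was thus higher in Nfkbiz KO, with a call in 15 of 15 alternative fits. Sox9 was also called higher, but its groups overlapped in log2 CPM. Its call was lost when any 1 sample other than Ctrl replicate 3 was left out. Sox5 was lower in read counts, Sox10 was not detected, and Sox6 had 10 reads over the 6 samples.

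**Figure D4:**
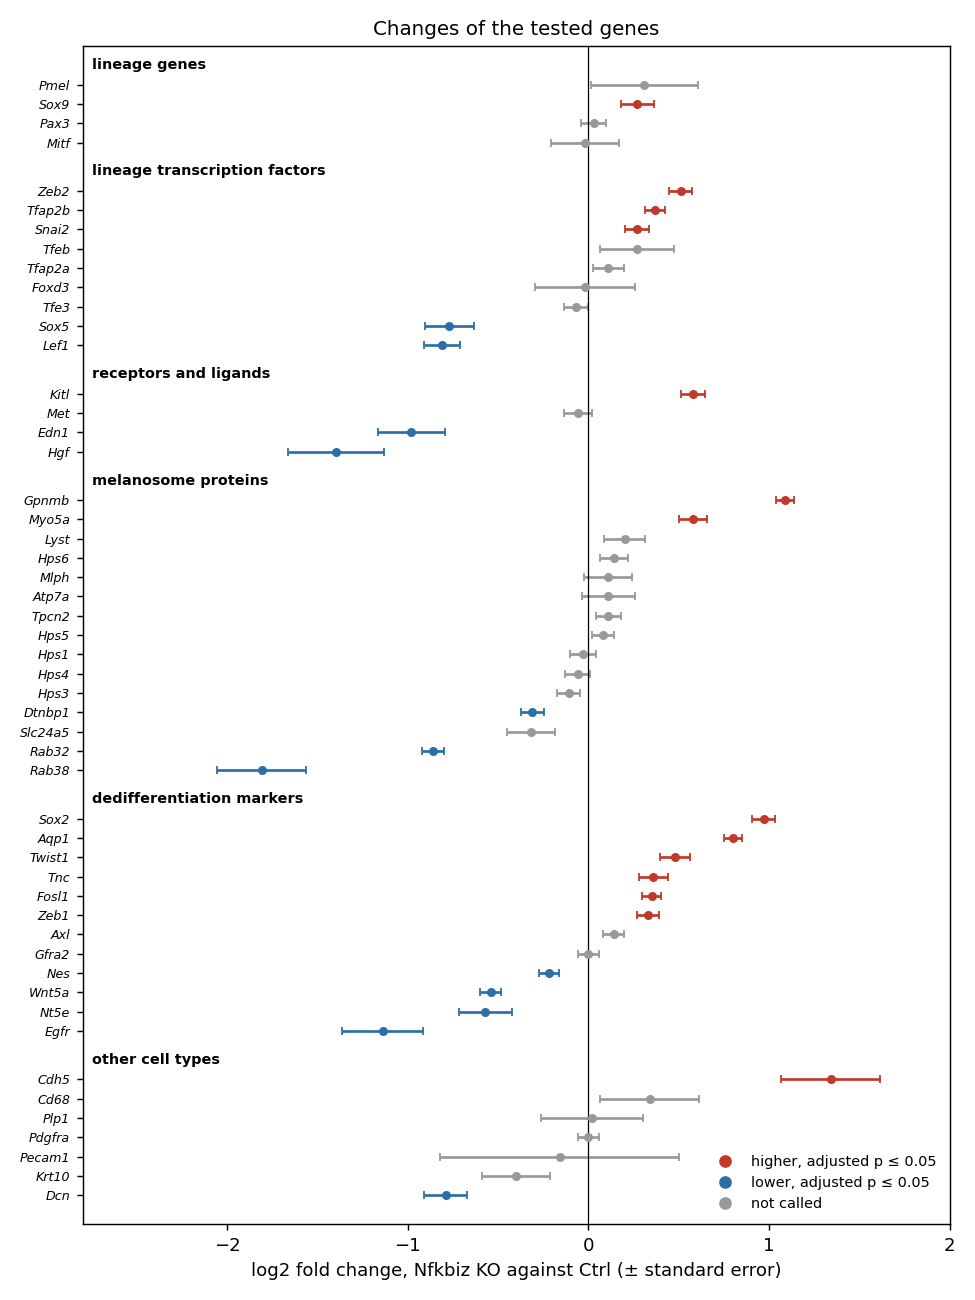
Log2 fold change between Nfkbiz KO and Ctrl (horizontal axis, ± standard error, 3 samples a group) of every tested gene, by list; red points are higher and blue points lower with an adjusted p up to 0.05, and grey points are not called. Among the 4 lineage genes Sox9, at 0.27, is the only called one, and Rab38, at -1.81, lies lowest of all.

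The labelled cell type was also checked against markers of other cells. Of 14 markers of keratinocytes, leukocytes, endothelium, Schwann cells and fibroblasts, 5 had at most 3 reads in every sample, and Cd3e had 0. The summed level of the 14 genes was 54.9 to 63.0 TPM in Ctrl and 55.5 to 58.5 TPM in Nfkbiz KO, most of it from Pdgfra and Dcn, mesenchymal genes. Pdgfra had 36.7 ± 3.83 and 39.5 ± 0.992 TPM, and Dcn fell from 15 ± 2.82 to 9.38 ± 0.496 TPM (log2 fold change -0.79). Cdh5, a cadherin of endothelium, rose from 0.548 ± 0.139 to 1.54 ± 0.313 TPM (1.34), while Pecam1, the other endothelial marker, had at most 0.134 TPM. Krt10, a keratin of the epidermis, averaged 2.96 and 2.44 TPM and was not called. Their part in the results above was not tested. Of the melanocyte markers that define the labelled cell type, Sox10, Tyr, Kit, Tyrp1, Dct and Mlana were not detected, Mitf and Pmel were detected at a low level in all 6 samples, and Pax3 was expressed.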

How the data were processed

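RNA of D4M-3A cells (3 Ctrl and 3 Nfkbiz KO samples) was sequenced with paired ends. The authors used CLC Genomics Workbench for mapping and counting, without regard to strand. The paper names GRCm39 and the submitters' processing notes name GRCm38, and the tables hold no coordinates. The deposited total and unique gene reads are raw counts per gene. The deposited TPM and RPKM values were computed by the authors from exons. Their decimal commas were converted.

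Total gene reads were tested with edgeR 4.0.16 in R 4.3.3: TMM factors (0.978 to 1.01), filterByExpr (minimum count 10, minimum total 15), quasi-likelihood test, Benjamini-Hochberg adjustment over 14419 genes, common dispersion 0.00518. Log2 CPM values use a prior count of 2. Alternatives used DESeq2 1.42.0 and limma 3.58.1. The procedure was tested on simulated counts. The members and lists were chosen with earlier results of these data known. Besides the 10 genes and Nfkbiz, genes were named by the size of a called change without overlap (up to 4 a list) or by level (up to 3 a list). Others, such as the silent genes and Dtnbp1, Nes, Wnt5a, Fosl1, Zeb1 and Twist1, were chosen after their values were seen. The genes Asip and Nrg1 of the lists were not analysed here. Coordinates of genes come from GENCODE vM39 (GRCm39), matched by symbol, and promoter windows from RefSeq (GRCm38.p6). Protein sequences were not used here, so that no identity between proteins was computed. No samples of a group were alike within sampling error (chi-square per degree of freedom 27.9 to 71.4 in Ctrl, 3.53 to 6.24 in Nfkbiz KO). The Nfkbiz KO samples were closer to each other than the Ctrl samples, and the reason was not tested. Such a comparison with counting error cannot tell whether the samples of a group come from separate cultures. Figures were drawn with matplotlib 3.10.9.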

Additional observations from a re-analysis of the deposited data

How the results depend on the processing

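Across other tests, normalizations, filters and read types, the direction and call of Sox9 held, and with 1 sample left out the number of lineage genes called higher lay between 0 and 1 and that called lower stayed at 0. The log2 fold change of Sox9 ranged from 0.21 to 0.41 in those fits. Values near 0 changed sign. Mitf had 0.01 and 0.02 with limma on log2(TPM + 1) and log2(TPM + 0.1), and lay between -0.15 and 0.09 with 1 sample left out. Pax3 lay between -0.01 and 0.06 in those fits. In the 2 limma fits Tfe3 had 0.03 and Met 0.05, and Met lay between -0.15 and 0.04 with 1 sample left out. Pdgfra had 0 with the filter of 50 reads, and lay between -0.04 and 0.05 with 1 sample left out. On both TPM scales 1 gene was called lower among the lineage transcription factors, among the receptors and ligands and among the dedifferentiation markers, in place of 2, 2 and 4, and the median log2 fold change of all genes shifted to 0.08 and 0.09. The cause was not tested. With limits of 0.5 and 2 TPM in place of 1 TPM, 6 and 8 of the 10 lineage genes lay below the limit in all 6 samples, against 7. Same-numbered samples did not deviate together (correlations across genes of 0.0367, -0.0233 and 0.0256), so that no pairing by number was seen. Such correlations cannot tell whether same-numbered samples came from the same experiment. With the replicate block the log2 fold change of Sox9 was 0.28 (adjusted p = 0.02, edgeR) and 1 lineage gene was called. The depth limits Mitf and Pmel, whose intervals span 0, and the undetected genes.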
